A study of Mus musculus with 4 samples.

Results

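The genes of the elastic fibre and its microfibril scaffold were examined in mouse embryonic fibroblasts (MEFs) by RNA sequencing. The 10 members were Eln, Fbn1, Fbn2, Fbln5, Efemp2, Mfap2, Mfap5, Mfap4, Lox and Loxl1, taken by symbol out of 36846 symbols in a table of RefSeq transcripts, with counts summed per symbol. All 10 were in the table, and all 10 passed the filter on low counts, which 14760 symbols passed. The fibroblasts were Dnmt3l knockout (Dnmt3l-KO, 2 libraries) or wild type (WT, 2 libraries). Both genotypes had the C57BL/6 strain label, came from Dnmt3l heterozygote intercrosses with embryos taken at day 13.5 to 14.5, were grown in DMEM with 10% serum and were used at passage 4. The Dnmt3l protein has no catalytic activity of its own and stimulates the enzymes that lay down new DNA methylation. The study looked for expression differences that go with better cloned embryos from knockout donor cells. The labels call the cells lines, and do not state how many embryos, lines or cultures stood behind each genotype, so the p-values measure only the spread between these libraries, which may be technical.

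Elastic fibres give skin, lung and arteries their recoil. Fibrillins polymerise outside the cell into microfibrils, and tropoelastin, the soluble product of Eln, is deposited on them with the help of fibulins and then cross-linked by lysyl oxidases. Fibroblasts and smooth muscle cells are the main makers of these proteins, and cultured fibroblasts assemble fibrillin microfibrils readily.

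Total counts were 51465395 and 40681328 in Dnmt3l-KO replicates 1 and 2, and 47776612 and 41049869 in WT replicates 1 and 2. Dnmt3l had 0 counts in both Dnmt3l-KO libraries, against 6 counts and 1 count in the WT libraries, which is around the floor of 3 counts and does not check the genotype labels. Among fibroblast markers, Vim (vimentin) had 4356 to 4667 CPM (counts scaled by library size) in Dnmt3l-KO and 4045 to 4326 CPM in WT, and Col1a1 (type I collagen) had 3206 to 5891 CPM in Dnmt3l-KO and 3405 to 4320 CPM in WT. Dpt and Lum, further markers on that list, lay under 10 CPM in each library. The summed leukocyte markers lay at 8.80 to 9.88 CPM in Dnmt3l-KO and 7.12 to 8.98 CPM in WT, and the summed epithelial markers at 3.97 to 5.83 CPM in Dnmt3l-KO and 5.799 to 7.62 CPM in WT, with Krt5 and Krt14 at 0 counts in all 4 libraries. The Dnmt3l-KO libraries stood further apart from each other than the WT libraries did. On the log2 CPM scale they were more than 1 apart in 8.13% of the genes tested, against 3.5% for the WT libraries.

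Between the genotypes, no elastic fibre gene passed the test. In edgeR's quasi-likelihood test, 0 of the 10 members had an adjusted p under 0.05, and 0 had an unadjusted p under 0.05. DESeq2's Wald test and limma-voom also called 0 of 10. Across all genes tested, edgeR called 0.0203% at the adjusted threshold, 0.0136% as higher in Dnmt3l-KO and 0.00678% as lower, and 4.15% had an unadjusted p under 0.05, so a count of 0 among 10 lies near the background. The log2 fold change, Dnmt3l-KO minus WT, was positive for 9 members, where 51.3% of all genes tested had a positive value. The median over the members was 0.17, beside 0.01 over all genes tested. For 7 members, Eln, Fbn1, Fbn2, Efemp2, Mfap2, Mfap4 and Loxl1, Dnmt3l-KO replicate 2 lay above both WT libraries and Dnmt3l-KO replicate 1 below both. Such a placing was found in 14% of all genes tested. The gap between the knockout libraries ranged over these 7 from 1.22-fold for Efemp2 and 1.31-fold for Loxl1 to 7.53-fold for Fbn2 and 7.95-fold for Eln. The reverse placing, replicate 1 above and replicate 2 below both WT libraries, was found for 0 members and in 13.6% of all genes tested. Both knockout libraries lay below both WT libraries for 0 members, beside 16.5% of all genes tested.

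**Figure D1:**
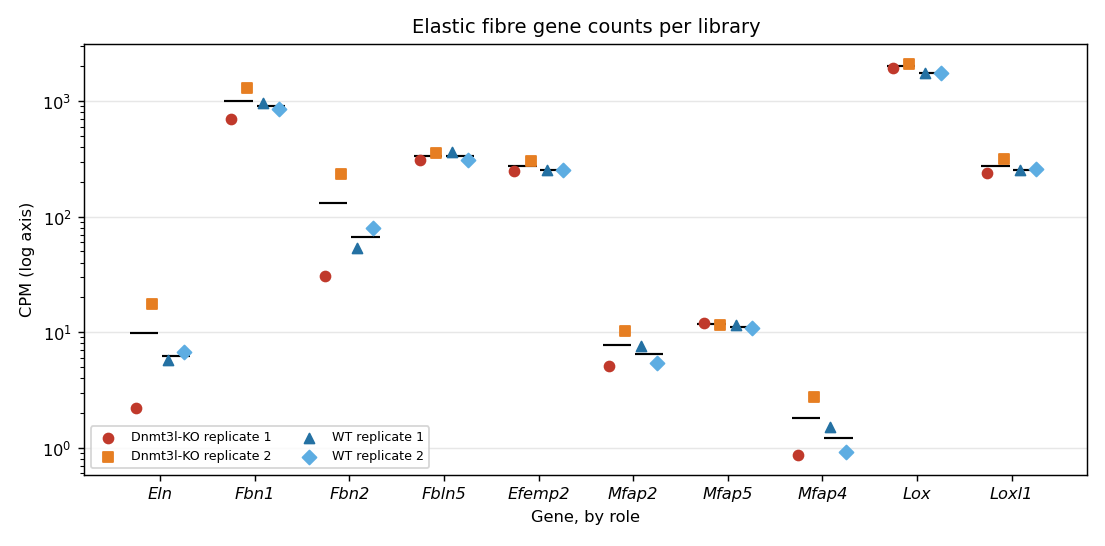
CPM of the 10 elastic fibre genes, grouped by role along the horizontal axis, on a log axis. Each point is 1 library, Dnmt3l-KO to the left and WT to the right of each gene, and bars mark the mean of 2 libraries. For Eln and Fbn2 the Dnmt3l-KO points (2.204 and 17.5 CPM for Eln, 30.8 and 232.0 CPM for Fbn2) enclose the WT points, while for Lox both Dnmt3l-KO points lie above both WT points.

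Eln (chromosome 5, 134702595 to 134747368, GRCm38) encodes tropoelastin, the building block of the elastic core. Eln had 110 and 733 counts in Dnmt3l-KO replicates 1 and 2, which is 2.204 and 17.5 CPM, against 270 and 281 counts, or 5.73 and 6.73 CPM, in WT replicates 1 and 2. The WT libraries were close together and the knockout libraries lay on either side of them. Dnmt3l-KO replicate 2 held 7.95 times the level of replicate 1, and 61 of the 14760 genes tested had a larger log2 gap between the knockout libraries, in either direction. Group means were 9.87 ± 10.8 CPM in Dnmt3l-KO and 6.23 ± 0.708 CPM in WT (SD, n = 2 each). The log2 fold change was 0.66 ± 0.90 (SE; edgeR, adjusted p = 0.999), with a 95% interval of -1.67 to 2.99. The data therefore leave room for a decrease of up to 3.19-fold and an increase of up to 7.94-fold. The sign itself rested on which knockout library was used. Without Dnmt3l-KO replicate 1 the log2 fold change was 1.49 (edgeR, adjusted p = 0.273), and without replicate 2 it was -1.499 (edgeR, adjusted p = 0.244). With all 4 libraries in limma-voom it was -0.099. In bulk RNA, fewer cells that express a gene and less of its RNA per cell cannot be told apart, here and for every gene that follows.

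The fibrillins are large glycoproteins that form the microfibril itself. Fbn1 (chromosome 2, 125300594 to 125506485), the gene mutated in human Marfan syndrome, had 35073 and 54043 counts in Dnmt3l-KO replicates 1 and 2 and 45335 and 35810 counts in WT replicates 1 and 2. In CPM these were 702.8 and 1293 in Dnmt3l-KO and 962.6 and 858.1 in WT. Replicate 1 of the knockout was thus the lowest of the 4 libraries and replicate 2 the highest, 1.84-fold apart, and 10.3% of the genes tested had a wider gap. The log2 fold change was 0.13 ± 0.30 (SE; edgeR, adjusted p = 0.999; 95% interval -0.65 to 0.91). Fbn2 (chromosome 18), the fibrillin most prominent in the embryo, had 1538 and 9700 counts in Dnmt3l-KO, or 30.8 and 232.0 CPM, and 2506 and 3317 counts in WT, or 53.2 and 79.5 CPM. Its knockout libraries were 7.53-fold apart, close to the gap of Eln, and its WT libraries 1.49-fold apart. The log2 fold change was 0.99 ± 0.90 (SE; edgeR, adjusted p = 0.999), with a 95% interval of -1.34 to 3.31. With all 4 libraries in limma-voom it was 0.38. It was 1.805 without Dnmt3l-KO replicate 1 and -1.11 without replicate 2 (edgeR, adjusted p = 0.297 and 0.317). With 1538 or more counts per library, counting error is small beside the gap between the knockout libraries.

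The make-up of fibrillin message differed between libraries. On the FPKM scale, which divides by transcript length and so allows genes to be compared, the level of Fbn1 was 24.2 and 5.91 times that of Fbn2 in Dnmt3l-KO replicates 1 and 2, against 19.2 and 11.4 times in WT replicates 1 and 2. Fbn1 was the more abundant fibrillin in all 4 libraries. Its excess over Fbn2 was widest and narrowest in the knockout libraries, with the WT libraries between them. The FPKM ratio of Fbn1 to Eln likewise was 121.9 and 28.2 in Dnmt3l-KO and 64.3 and 48.7 in WT.

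Fibulins tie tropoelastin and lysyl oxidases to the microfibril. Fbln5 (chromosome 12, 101746565 to 101819119) encodes fibulin-5, which binds tropoelastin and Loxl1 and without which mice have loose skin. Fbln5 had 311.5 and 352.8 CPM in Dnmt3l-KO replicates 1 and 2 and 364.5 and 311.2 CPM in WT, so the genotypes overlapped fully. Its log2 fold change was -0.02 ± 0.13 (SE; edgeR, adjusted p = 0.999), with a 95% interval that runs from a 1.28-fold decrease to a 1.24-fold increase. Efemp2 (chromosome 19, 5473946 to 5482520) encodes fibulin-4, which binds Lox and is needed for cross-linking in mice. Efemp2 had 248.8 and 304.1 CPM in Dnmt3l-KO replicates 1 and 2 and 255.8 and 255.1 CPM in WT. Its log2 fold change was 0.11 ± 0.13 (SE; edgeR, adjusted p = 0.999; 95% interval -0.22 to 0.45). The gap between the knockout libraries, 1.22-fold for Efemp2 and 1.13-fold for Fbln5, was narrower than for either fibrillin.

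Windows of 300 bases around the transcription start, 250 before and 50 after, were looked up in RefSeq (GRCm38.p6) for the members, since Dnmt3l acts on DNA methylation at CG dinucleotides. Of the 10 members, 4 had a window that could be used, Fbn1, Mfap2, Fbln5 and Efemp2. Methylation itself was not measured. The only window of Fbn1, whose knockout libraries lay apart, and the outer of 2 windows of Fbln5, whose libraries overlapped, are shown with each CG in capitals, both read on the minus strand, at chr2:125506389-125506688 for Fbn1 and at chr12:101819070-101819369 for Fbln5.
Fbn1: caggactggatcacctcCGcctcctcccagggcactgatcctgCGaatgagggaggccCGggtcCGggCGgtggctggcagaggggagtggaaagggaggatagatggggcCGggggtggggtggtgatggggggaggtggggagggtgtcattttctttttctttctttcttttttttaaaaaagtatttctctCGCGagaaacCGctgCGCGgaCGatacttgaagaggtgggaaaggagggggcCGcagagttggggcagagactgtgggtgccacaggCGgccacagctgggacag
Fbln5: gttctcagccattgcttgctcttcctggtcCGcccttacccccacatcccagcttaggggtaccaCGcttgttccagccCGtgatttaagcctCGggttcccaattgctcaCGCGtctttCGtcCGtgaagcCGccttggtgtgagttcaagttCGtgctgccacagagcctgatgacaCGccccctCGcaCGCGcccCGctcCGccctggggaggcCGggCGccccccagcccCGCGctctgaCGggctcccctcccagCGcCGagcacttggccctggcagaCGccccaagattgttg
The Fbn1 window held 14 CG dinucleotides and this Fbln5 window 24, against a median of 7 and quartiles of 3 and 20 over all 32851 windows, of which 94.6% held at least 1. The GC box GGGCGG, read on both strands and overlapping a CG by construction, occurred 1 time in the Fbn1 window and 2 times in the Fbln5 window, and in 35.7% of all windows. The TATA box TATAAA and the AP-1 motif TGANTCA, also read on both strands, were found in neither window. They occur in 13.6% and 7.81% of all windows. These are 2 of the 8 windows found. The other Fbln5 window held 8 CG and the Mfap2 windows held 22 and 6, while the 3 Efemp2 windows held 16 to 41.

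The small microfibril-associated glycoproteins bind fibrillin. Mfap2 (chromosome 4, 141010424 to 141015976), which encodes MAGP-1, had 256 and 431 counts in Dnmt3l-KO replicates 1 and 2, or 5.13 and 10.3 CPM, against 358 and 226 counts, or 7.60 and 5.42 CPM, in WT. The knockout libraries again enclosed the WT libraries, at 2.01-fold apart. The log2 fold change was 0.24 ± 0.38 (SE; edgeR, adjusted p = 0.999; 95% interval -0.75 to 1.24). Mfap5 (chromosome 6, 122513584 to 122529290), which encodes MAGP-2, had 12.1 and 11.6 CPM in Dnmt3l-KO and 11.5 and 10.8 CPM in WT, from 450 to 603 counts per library. This was the narrowest gap between the knockout libraries among the 10 members, and 85.0% of the genes tested had a wider gap. Both knockout libraries lay above both WT libraries for Mfap5, by a margin that was within the spread (log2 fold change 0.09 ± 0.12, SE; edgeR, adjusted p = 0.999; 95% interval -0.22 to 0.40). The ratio of Mfap5 to Mfap2 on the FPKM scale was 2.35 and 1.14 in Dnmt3l-KO and 1.58 and 2.18 in WT, with Mfap5 the higher in each library.

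Mfap4 (chromosome 11, 61485431 to 61488708), a fibrinogen-related protein that associates with elastic fibres, was the least abundant member. It had 43 and 114 counts in Dnmt3l-KO replicates 1 and 2, or 0.862 and 2.73 CPM, and 71 and 38 counts in WT, or 1.51 and 0.911 CPM. Its knockout libraries were 3.17-fold apart, and 2.82% of the genes tested had a wider gap. Its log2 fold change was 0.56 ± 0.63 (SE; edgeR, adjusted p = 0.999). The 95% interval was -1.07 to 2.19, so a 2-fold change in either direction lay within the interval.

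Lysyl oxidases are copper-dependent enzymes that oxidise lysines of tropoelastin and collagen so that cross-links can form. Lox (chromosome 18) had 96566 and 88385 counts in Dnmt3l-KO replicates 1 and 2, or 1935 and 2114 CPM, and 81809 and 73578 counts in WT, or 1737 and 1763 CPM. Both knockout libraries lay above both WT libraries, which was the case for 2 of the 10 members, Mfap5 and Lox, and for 16.2% of all genes tested. Lox kept that order under each scaling tried, while Mfap5 lost it with upper-quartile scaling and on FPKM values. Group means were 2025 ± 127 CPM in Dnmt3l-KO and 1750 ± 18.4 CPM in WT (SD, n = 2 each). The log2 fold change was 0.21 ± 0.12 (SE), which had the lowest p of the members, 0.13 unadjusted, and did not pass (edgeR, adjusted p = 0.999). Its 95% interval, -0.09 to 0.51, bounds any increase at 1.42-fold and any decrease at 1.06-fold, the tightest bound on a decrease among the 10. Loxl1 (chromosome 9, 58287723 to 58313212), the family member that binds fibulin-5, had 238.6 and 313.2 CPM in Dnmt3l-KO and 251.3 and 260.3 CPM in WT. The genotype difference of Loxl1 was 0.11 ± 0.15 on the log2 scale (SE; edgeR, adjusted p = 0.999; 95% interval -0.29 to 0.50). The FPKM ratio of Lox to Loxl1 was 5.87 and 4.85 in Dnmt3l-KO and 4.97 and 4.87 in WT.

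**Figure D2:**
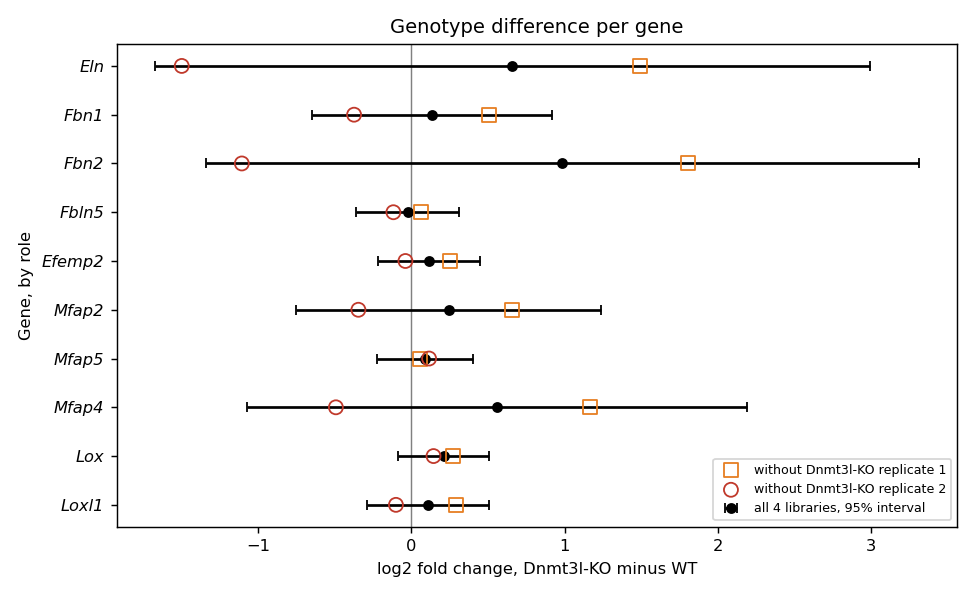
Log2 fold change, Dnmt3l-KO minus WT, of each elastic fibre gene. Black points and bars are edgeR estimates from 4 libraries with 95% intervals, open squares leave out Dnmt3l-KO replicate 1 and open circles leave out replicate 2. Each interval crosses 0, and the open symbols of Eln lie at 1.49 and -1.499, on opposite sides of 0, while those of Lox lie at 0.27 and 0.14, on the same side.

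Leaving out a knockout library changed the sign of the log2 fold change for 8 of the 10 members. Without Dnmt3l-KO replicate 2 it turned negative for Eln, Fbn1 (-0.37), Fbn2, Efemp2 (-0.040), Mfap2 (-0.35), Mfap4 (-0.49) and Loxl1 (-0.10), and without replicate 1 it turned positive for Fbln5 (0.060). Lox (0.27 without replicate 1, 0.14 without replicate 2) and Mfap5 (0.055 and 0.11) stayed positive. With a single knockout library, which is then assumed to vary like the WT libraries, 8 members without replicate 1 and 3 members without replicate 2 had an unadjusted p under 0.05, against 12% and 13.3% of all genes tested in those fits. None of the 10 passed after adjustment in either fit, where the lowest adjusted p of a member was 0.273 without replicate 1 and 0.244 without replicate 2, both for Eln.

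The gap between the knockout libraries was larger than the gap between the WT libraries for 8 of 10 members, the exceptions being Fbln5 and Mfap5. Over all 14760 genes tested, 9622 had the larger gap in the knockout. The median absolute log2 difference of the members was 0.64 between the Dnmt3l-KO libraries and 0.20 between the WT libraries, beside 0.22 and 0.13 over all genes tested. Dnmt3l-KO replicate 2 was the highest of the 4 libraries for 8 members (28.9% of all genes tested), and replicate 1 the lowest for 7 (30.7%). Of the members, 4 members, Eln, Fbn2, Mfap2 and Mfap4, were more than 1 higher there than in replicate 1 on the log2 scale (4.77% of all genes tested). On the authors' FPKM values, replicate 2 of the knockout was the highest for all 10 members (36.5% of all genes tested), and the placing of the knockout libraries on either side of WT held for 6 members (15.1% of all genes tested), with Efemp2 and Loxl1 lost and Fbln5 gained. Of the 5 most abundant members, Lox, Efemp2, Fbln5 and Loxl1 had knockout gaps of 1.09-fold (Lox) to 1.31-fold (Loxl1), while the knockout libraries of Fbn1 were 1.84-fold apart. On the log2 scale the gap was 0.13 for Lox, 0.18 for Fbln5, 0.29 for Efemp2 and 0.39 for Loxl1. The median over genes tested with a mean of at least 10 CPM was 0.165. The 4 with the widest gaps were among the 5 least abundant. Mfap5, also among those 5, had the narrowest gap of all 10.

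**Figure D3:**
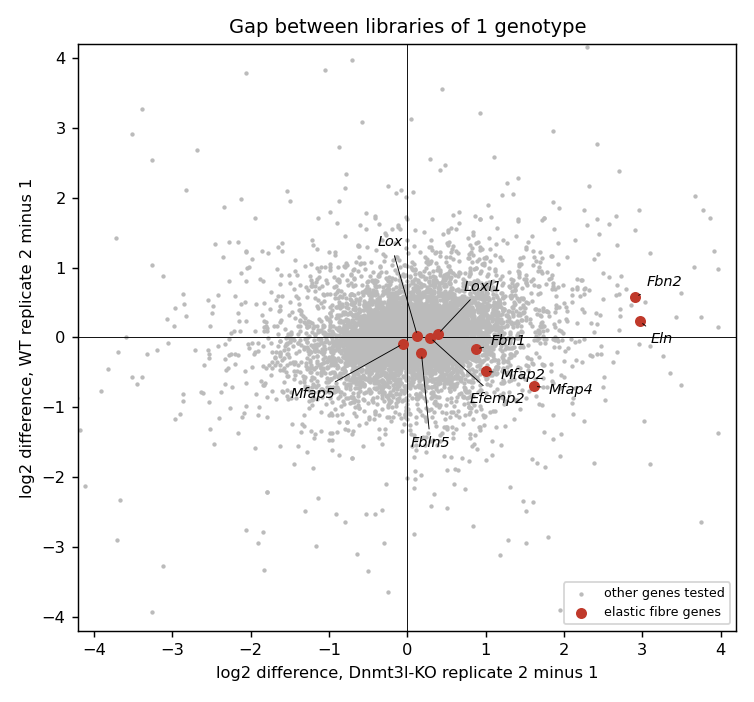
Log2 CPM difference between the Dnmt3l-KO libraries (horizontal) against that between the WT libraries (vertical), replicate 2 minus replicate 1 in each. Red points are the 10 elastic fibre genes and grey points the other genes tested, of which 25 lie outside the axes. Eln (2.97, 0.23) and Fbn2 (2.91, 0.58) lie far to the right, and Fbln5, Lox and Mfap5 lie near the origin.

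Per unit of transcript length, the members covered a 408-fold range. Lox was the most abundant, at 380.0 and 429.8 FPKM in Dnmt3l-KO and 321.1 and 357.2 FPKM in WT. It was followed by Efemp2 (mean of 4 libraries 154.3 FPKM), Fbln5 (124.3), Fbn1 (88.3), Loxl1 (72.8), Mfap5 (9.99), Fbn2 (8.77), Mfap2 (5.99), Eln (1.97) and Mfap4 (0.911 FPKM). The 4-library ranges of neighbours in this order did not overlap between Lox and Efemp2, Efemp2 and Fbln5, or Loxl1 and Mfap5, and overlapped for the other 6 neighbouring pairs. Fbn2, for example, spanned 2.66 to 20.9 FPKM and was below Mfap2 in the libraries of Dnmt3l-KO replicate 1 and WT replicate 1. The FPKM of Lox was thus 718.7 and 98.1 times that of Eln in Dnmt3l-KO replicates 1 and 2, and 246.6 and 213.1 times in WT. These are ratios of RNA, and the proteins were not measured. Summed over the members, the level was 785.8 and 1006 FPKM in Dnmt3l-KO and 759.1 and 807.2 FPKM in WT. Lox alone made up 48.4% and 42.7% of that sum in Dnmt3l-KO and 42.3% and 44.2% in WT.

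The 10 members were covered by 32 RefSeq transcripts, of which 31 had a count in some library. No source used here states how reads shared between transcripts were divided, so values of single transcripts are less certain than those of genes. Of the 25 transcripts that passed the filter, 0 were called by edgeR, 1 had an unadjusted p under 0.05, and DESeq2 called 0. Over all 39633 transcripts tested, edgeR called 0.00252%, and 4.12% had an unadjusted p under 0.05. The transcript with the low p was Lox variant 2, with 25.5% and 20.7% of the Lox counts in Dnmt3l-KO and 21.7% and 21.6% in WT (log2 fold change 0.30 ± 0.11, SE; edgeR, adjusted p = 1.0). In the authors' deposited table, which gives log2 fold changes of Dnmt3l-KO over WT, the smallest adjusted p among the members' transcripts was 0.867, for Efemp2 variant X6.

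Transcript make-up differed between libraries for some members without following genotype. Fbln5 variant X2 held 24.2% and 6.58% of the Fbln5 counts in Dnmt3l-KO replicates 1 and 2, and 26.6% and 12.9% in WT replicates 1 and 2. It was the larger share in the libraries numbered 1 of both genotypes. Variant X1, the main Fbln5 transcript, ran the other way, with 55.4% and 70.6% in Dnmt3l-KO and 49.5% and 63.2% in WT. Efemp2 variant X1 had 27.0% and 42.8% in Dnmt3l-KO and 44.8% and 32.2% in WT. For Mfap5, by contrast, the curated transcript without a variant number held 56.0% and 54.0% in Dnmt3l-KO and 48.1% and 38.9% in WT. The groups did not overlap in this share, and shares were not tested. In the test of transcript counts, neither Mfap5 transcript passed (edgeR, adjusted p = 1.0 for both). Eln and Mfap2 came almost wholly from a single transcript, with at least 96.3% and 97.2% of the counts in each library, and Fbn2 and Loxl1 had 1 transcript each in the table. The wide gaps of Eln, Fbn2 and Mfap2 between the knockout libraries are thus gaps of their main transcripts.

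**Figure D4:**
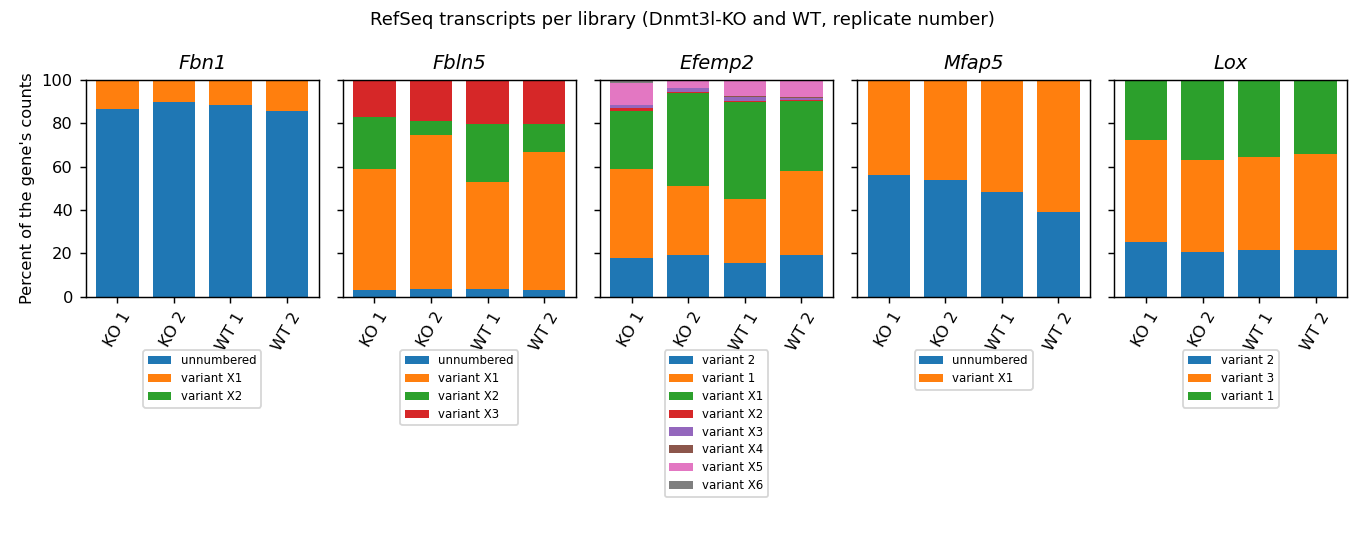
Share of each gene's counts (percent) by RefSeq transcript variant, for the 5 members in which more than 1 transcript held a sizeable share. Each bar is 1 library, Dnmt3l-KO (KO) left of WT. The Fbln5 variant X2 share lies at 24.2% and 6.58% in Dnmt3l-KO and at 26.6% and 12.9% in WT.

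Among the 8800 genes tested with a mean of at least 10 CPM, those whose centred log2 CPM over the 4 libraries lay nearest to Eln, by Euclidean distance, were Mrgprf, which encodes an orphan G protein-coupled receptor (distance 0.33), Fbn2 (0.45) and Hmcn1, which encodes the matrix protein hemicentin-1 (0.54). Mrgprf had 4.07 and 29.6 CPM in Dnmt3l-KO and 11.2 and 15.6 CPM in WT, and Hmcn1 had 4.73 and 22.4 CPM in Dnmt3l-KO and 8.30 and 11.0 CPM in WT. A member of the same fibre was thus the second nearest of 8800 genes. Of the other members, Mfap4 (distance 1.22), Mfap2 (1.49) and Fbn1 (1.504) took places 59, 157 and 168 when set against the 8800 genes. Eln, Mfap2 and Mfap4 themselves had means under 10 CPM in each genotype, so they were not among the 8800. Mfap5 (2.15) and Lox (2.02) were the farthest members. Such a likeness rests on 4 libraries and mainly on the difference between the knockout libraries.

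Other genes that act with the elastic fibre were followed in 6 lists of 94 entries, of which 90 were in the table and 83 passed the filter. None was called between the genotypes by edgeR, DESeq2 or limma-voom. Over all genes tested edgeR called 0.0203%, so 0 of 83 lies near the background, as does a count of 0 in each list. In edgeR 4 of the 83 had an unadjusted p under 0.05, where the share over all genes tested was 4.15%. All 4 were higher in both knockout libraries than in both WT libraries, a placing found in 16.2% of all genes tested. They were picked by a low p, which with 2 libraries a group goes with such a separation. The placing is therefore no further evidence. Tgfb1, which encodes a growth factor that raises elastin and fibrillin production in fibroblasts, had 41.9 and 38.4 CPM in Dnmt3l-KO and 28.9 and 26.3 CPM in WT (log2 fold change 0.54 ± 0.11, SE; edgeR, adjusted p = 0.999). Hspg2, which encodes the basement membrane proteoglycan perlecan, a fibrillin binder, had 1376 and 1359 CPM in Dnmt3l-KO and 1091 and 1028 CPM in WT (0.37 ± 0.11). Ltbp3 and Ltbp4 encode latent TGF-beta binding proteins, relatives of the fibrillins. Ltbp3 had 103.8 and 131.3 CPM in Dnmt3l-KO and 85.2 and 93.2 CPM in WT (0.40 ± 0.14), and Ltbp4 had 10.3 and 13.9 CPM in Dnmt3l-KO and 8.35 and 8.60 CPM in WT (0.51 ± 0.19). For these 3, too, edgeR's adjusted p was 0.999.

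By list, 0 of 21 microfibril and elastin partners were called in either direction by edgeR, at a median log2 fold change of 0.18. The value was positive for 18 of these 21, and for 54 of all 83 partner genes tested, beside 51.3% of all genes tested. Of 13 genes of cross-linking and precursor processing 0 were called (median 0.06). Loxl3, a lysyl oxidase relative, had 340.7 and 350.4 CPM in Dnmt3l-KO and 400.0 and 394.0 CPM in WT, opposite in order to Lox, and did not pass (log2 fold change -0.20 ± 0.095, SE; edgeR, adjusted p = 0.999). Slc39a13, a zinc transporter, had 78.0 and 74.7 CPM in Dnmt3l-KO and 59.5 and 67.6 CPM in WT (edgeR, adjusted p = 0.999). Of 13 cell surface receptors 0 were called (median 0.03). Itga5, a fibronectin receptor subunit that also binds fibrillin, had 461.3 and 315.0 CPM in Dnmt3l-KO and 350.8 and 302.0 CPM in WT. The elastin-binding protein is a splice product of Glb1, which had 62.3 and 49.2 CPM in Dnmt3l-KO and 51.1 and 43.6 CPM in WT. Neither passed the test. There were 0 calls among 10 elastases and inhibitors (median -0.04). Serpine2, the gene of lowest p on this list, had 134.9 and 158.9 CPM in Dnmt3l-KO and 110.9 and 137.4 CPM in WT. Ctsk, an elastolytic cathepsin, had 21.2 and 32.4 CPM in Dnmt3l-KO and 34.0 and 30.5 CPM in WT, with the groups overlapping. Timp2, a metalloproteinase inhibitor, had 1455 and 998.3 CPM in Dnmt3l-KO and 1009 and 1077 CPM in WT. Of 18 regulators 0 were called (median 0.07), and of the 8 listed cutis laxa genes outside the fibre 0 (median 0.00). Atp6v0a2, the gene of lowest p on that list, had 95.2 and 88.4 CPM in Dnmt3l-KO and 82.3 and 85.7 CPM in WT. Aldh18a1, an enzyme of proline synthesis, had 90.7 and 131.1 CPM in Dnmt3l-KO and 102.2 and 93.9 CPM in WT.

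The placing of knockout replicate 2 above and replicate 1 below both WT libraries was seen for 15 of the 83 partner genes, beside 14% of all genes tested, and 6 of the 15 were microfibril and elastin partners. Emilin1, which encodes a protein at the interface of elastin and microfibrils, had 72.3 and 140.8 CPM in Dnmt3l-KO and 92.2 and 96.6 CPM in WT. Itgb8, a subunit of an integrin that activates TGF-beta, had 2.24 and 15.0 CPM in Dnmt3l-KO and 5.42 and 6.69 CPM in WT. Both were chosen after their values were seen.

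Markers of fibroblasts and other lineages also differed between the knockout libraries. Of 10 fibroblast markers, 8 had knockout replicate 2 above and replicate 1 below both WT libraries (14% of all genes tested). Vim (4667 and 4356 CPM in Dnmt3l-KO replicates 1 and 2) and S100a4 (1212 and 913.7 CPM) were instead higher in replicate 1. The summed level of the 10 markers was 11560 and 16450 CPM in Dnmt3l-KO replicates 1 and 2 and 13490 and 12270 CPM in WT. All 6 chondrocyte markers were highest in Dnmt3l-KO replicate 2 (28.9% of all genes tested), and 4 of them also had replicate 1 below both WT libraries. Their summed level was 254.0 and 351.3 CPM in Dnmt3l-KO and 251.7 and 295.5 CPM in WT. Most of that sum was Col2a1, and Col9a1 had under 0.4 CPM in each library. Smooth muscle markers ran the other way, with 1 of 7 highest in Dnmt3l-KO replicate 2, beside the same 28.9%. Their summed level was 7903 and 5086 CPM in Dnmt3l-KO and 7160 and 5723 CPM in WT. The skeletal muscle markers summed to 233.8 and 117.8 CPM in Dnmt3l-KO and 263.3 and 161.2 CPM in WT, nearly all of it Acta1, and the endothelial markers to 20.4 and 6.74 CPM in Dnmt3l-KO and 8.77 and 10.4 CPM in WT. Most of the endothelial sum was Kdr (17.5 and 4.81 CPM in Dnmt3l-KO). Of the 3 endothelial markers tested, 1, Tek, was highest in Dnmt3l-KO replicate 2. The neural markers summed to 156.5 and 128.9 CPM in Dnmt3l-KO and 164.2 and 127.6 CPM in WT. Nes, at 100.1 and 50.9 CPM in Dnmt3l-KO, weighed most in that sum. Of the 5 neural markers tested, 3 (Tubb3, Sox2 and Map2) were instead highest in Dnmt3l-KO replicate 2. Their list median of replicate 2 minus replicate 1 was 0.42 on the log2 scale. The part of these other genes in the gap of the elastic fibre genes was not tested.

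**Figure D5:**
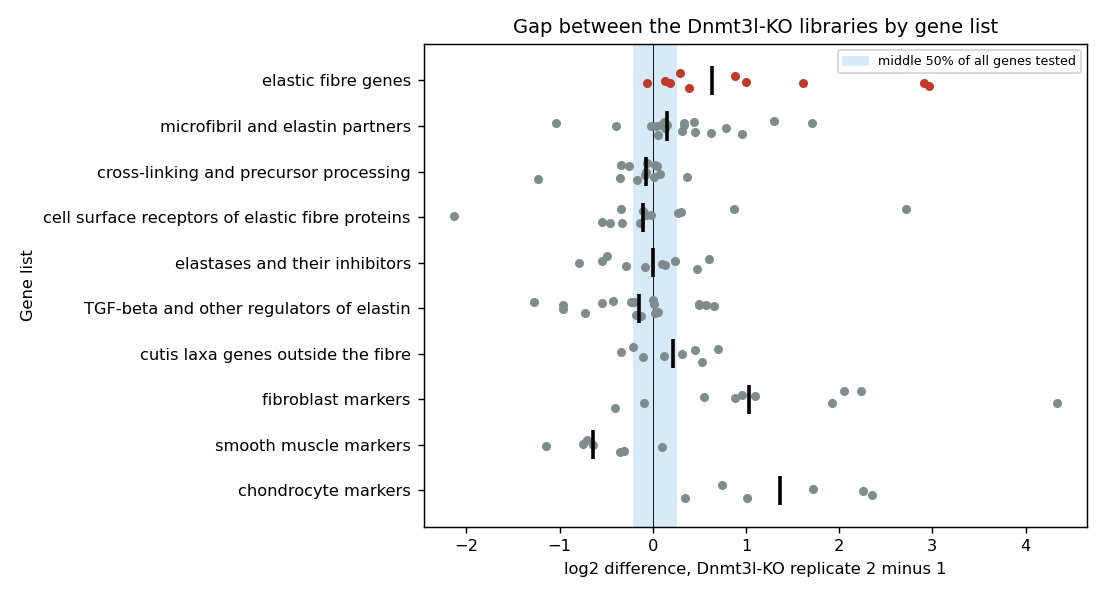
Log2 CPM difference between the Dnmt3l-KO libraries, replicate 2 minus replicate 1, per gene (points) and list median (bars). The elastic fibre genes are red, the fixed lists grey, and the shaded band holds the middle 50% of all genes tested. The median was 0.64 for the elastic fibre genes, 1.03 for fibroblast markers, 1.37 for chondrocyte markers and -0.64 for smooth muscle markers.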

How the data were processed

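RNA depleted of ribosomal RNA was copied with random primers and amplified over 12 PCR cycles, per the labels' protocols. DESeq2 1.8.0, eXpress 1.4.1, Cufflinks 2.2.1, TopHat2 2.0.12 and the build mm10 (GRCm38) are named in the submitters' processing notes, without their roles. Per the file headers, the authors deposited an estimated count (whole numbers) and an FPKM value per RefSeq transcript and library. Their own comparison, per the file headers, gives per transcript a log2 fold change and its error, a score (the test statistic), raw and adjusted p-values, and the mean normalized signal.

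The table held 116415 transcripts. Counts and FPKM were summed per symbol. Dnmt3l-KO was tested against WT with edgeR 4.0.16 in R 4.3.3 (TMM, expression filter, robust quasi-likelihood F-test, Benjamini-Hochberg over all genes tested, threshold 0.05). CPM are counts scaled by the TMM library size, and log2 CPM used for gaps have a prior count. SE were derived from the F statistic. The test was checked on simulated counts. Alternatives were other scalings, no filter, DESeq2 1.42.0, limma 3.58.1 (voom, or log2 FPKM with a pseudocount of 1 or 0.1), a replicate block, and each library left out. Intervals cover these libraries only; PCR copies are not independent molecules. Positions and promoters are from RefSeq, GRCm38.p6.

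The members and lists were chosen with earlier results of these data known. Named genes were the members, genes among the 3 of smallest p per list (not in each list all 3), and the 3 genes nearest to Eln. Defining genes of the cell type marker lists were also named, as were those said to be chosen after their values were seen.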

Additional observations from a re-analysis of the deposited data

How the results depend on the processing

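The count of 0 members past the threshold held under all 12 alternatives tried, as did 0 partner genes, and 0 member transcripts under the 7 tried for them. Of 120 member fold changes, 108 kept their sign and side of the threshold and 12 reversed; 9 of the 12 came from leaving out a library. Leaving out each library in turn gave ranges of -1.499 to 1.49 for Eln, -0.37 to 0.50 for Fbn1, -1.11 to 1.805 for Fbn2, -0.13 to 0.093 for Fbln5, -0.040 to 0.25 for Efemp2, -0.35 to 0.66 for Mfap2, -0.49 to 1.16 for Mfap4 and -0.10 to 0.29 for Loxl1. The other reversals were Eln in limma-voom (-0.099) and Fbln5 on log2(FPKM + 1) and log2(FPKM + 0.1) values (0.020 in each), the cause of which was not tested. Over all genes, edgeR called 3, and 2 to 6 with a library left out; 8 were called with no filter, 31 by DESeq2, 6 on log2(FPKM + 1) and 9 on log2(FPKM + 0.1) values. The scalings for the placing of the knockout libraries were chosen after seeing the data. Members with both knockout libraries above both WT libraries numbered 2, but 1 with upper-quartile scaling and 1 on FPKM values; highest in replicate 2 were 8 to 10 (28.4% to 36.5% of all genes tested), and on either side of WT 6 to 8 (13.7% to 19.3%, the 8 and the 19.3% both with library totals). The replicate numbers share only a number in the labels. Replicate 2 minus replicate 1 correlated between genotypes at 0.0999 across 14760 genes and at 0.142 across the 8800 with a mean of at least 10 CPM. A replicate block called 4 genes and 0 members, with log2 fold changes of 0.072 for Eln and 0.39 for Fbn2, and turned no member's sign. With 2 libraries a group, the 95% intervals were widest for Eln, Fbn2 and Mfap4, whose knockout libraries lay far apart. For Mfap4 the WT libraries also lay apart (replicate 2 minus replicate 1, -0.701 on the log2 scale), at 38 to 114 counts per library.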
